A study of Drosophila melanogaster with 9 samples.

Results

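The transcripts of brat-null larval brains were compared between 9 hr of Insensible (Insb) overexpression and no overexpression (0 hr). Of the overexpression times sequenced, 9 hr is the earlier, and the study used them to follow supernumerary type II neuroblasts toward intermediate neural progenitors (INPs). The comparison used 6 of the 9 RNA-sequencing libraries of the series, 3 at 9 hr and 3 at 0 hr, and the other 3 (18 hr) served only to estimate the spread. All larvae were brat11/Df(2L)Exel8040 and carried 2xTub-Gal80ts, Wor-Gal4 and UAS-insb. The study also names Ase-Gal80 among the transgenes, which restricts the driver to type II neuroblasts. The 9 hr larvae were moved to 33°C for their last 9 hr, whereas the 0 hr larvae stayed at 25°C and were of the same total culture time, so Insb overexpression and the warmer temperature cannot be told apart. Each library was made from a pool of whole brains, and in such bulk tissue fewer cells of a type and less RNA per cell cannot be told apart either.

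Type II neuroblasts are the stem cells of the larval central brain that divide asymmetrically into themselves and an immature INP, which then matures and divides further into neurons and glia. Notch signalling holds the neuroblast in its state through target repressors of the E(spl) family, Dpn and Klu, and the translational regulator Brat, inherited by the immature INP, turns that program off. Insb is a nuclear protein that represses Notch target genes.

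Libraries held between 26533845 and 37109356 counts, and levels are given as CPM, the counts of a gene scaled to a common library total. Replicates 2 and 3 at 9 hr were nearly identical: over 8163 genes of 20 to 6000 reads the median chi-square between them was 0.81, whereas the other 8 pairs within a group had medians of 2.03 to 6.26. Sampling noise alone gives 0.91 if each fragment was counted by its 2 mates. They were therefore summed and counted as 1 sample, which leaves n = 2 at 9 hr and n = 3 at 0 hr for every mean ± SD below. P-values measure only the spread between samples within a group, estimated over these samples and the 18 hr libraries together. Among the 0 hr libraries, replicate 3 stood apart in heat-inducible transcripts: Hsp70Bb was at 111, 224 and 239.7 CPM at 9 hr, and at 0 hr it was at 517 CPM in replicate 3 but at 17.7 and 27.8 CPM in replicates 1 and 2.

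Of 10985 genes tested, 134 were higher at 9 hr (1.22%) and 67 were lower (0.610%), at a Benjamini-Hochberg adjusted p under 0.05 in edgeR's quasi-likelihood test and a fold change of at least 1.5. A fold of at least 2 was reached by 79 of the higher and 23 of the lower genes. The 9 hr and 0 hr libraries did not overlap in 200 of the 201 called genes, against 39.5% of all genes tested. The calls were made on these same libraries, so this is no separate evidence for them. Many of the higher genes were weakly expressed, 59 of 134 being under 10 CPM on average, against 13 of the 67 lower genes. With all 9 libraries kept separate, 2.49% of genes were called higher and 1.19% lower, and 128 and 61 of the genes above were among them. The counts rest on few samples: without 0 hr replicate 1, 2 or 3 they were 43, 27 and 74 higher and 26, 14 and 24 lower. Without 9 hr replicate 1, which leaves 1 sample at 9 hr, 3 genes were higher (insb, CR44905 and Lim3) and 0 lower in edgeR, with 637 higher and 585 lower at an unadjusted p under 0.05. The fits without 9 hr replicate 2 or 3 only halve the summed sample and so remove none. They gave 142 and 138 higher and 72 and 73 lower genes. In at least 5 of all 6 leave-one-out fits, these included, 24 of the higher and 7 of the lower genes were called.

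**Figure D1:**
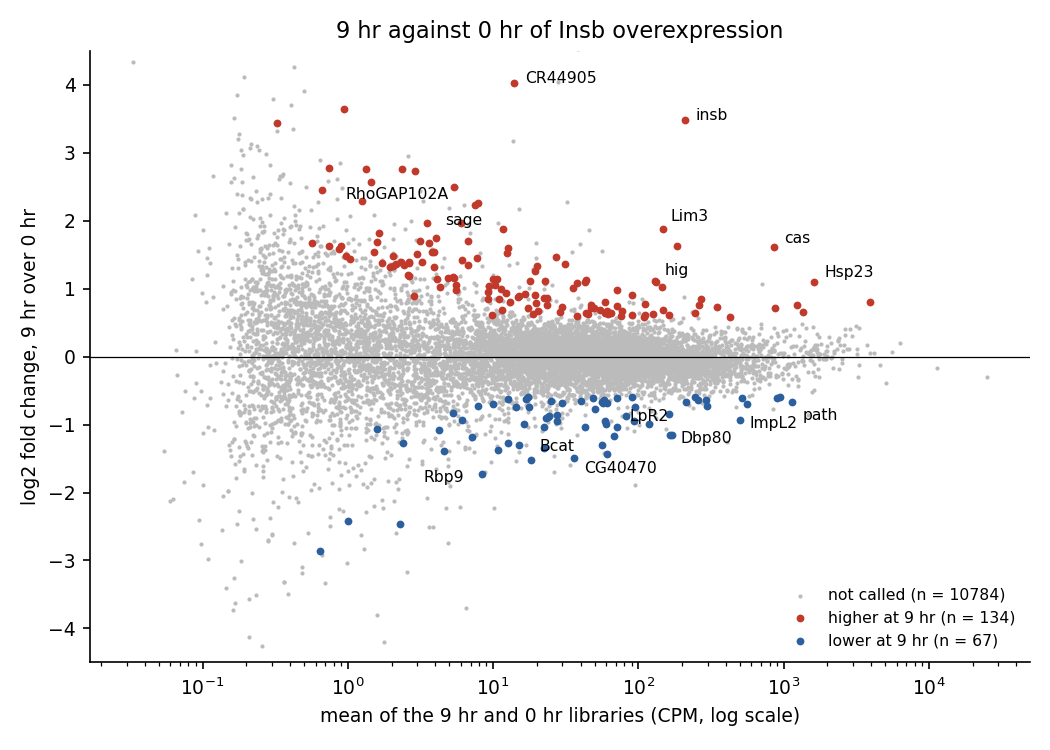
Each point is a gene tested, by its mean over the 9 hr and 0 hr libraries (CPM, log scale) and its log2 fold change at 9 hr over 0 hr; red points are the 134 genes called higher and blue points the 67 called lower. The axis ends at 4.5 on either side, beyond which lie 56 genes, 0 of them called; insb and CR44905 are the highest of the labelled points.

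The overexpressed gene itself, listed as CG6520 (dm6 2R:17475214-17476272), was at 369, 389 and 396 CPM at 9 hr and at 32.9, 32.5 and 36.9 CPM at 0 hr. Reads of the UAS-insb transgene and of the chromosomal gene cannot be told apart in these counts. The log2 fold change of CG6520 was 3.48 ± 0.09 (SE), an 11.2-fold rise with an adjusted p of 1.16e-05, and it was called in each of the 6 fits that leave out a library. Of the genes that the study follows, erm rose by 1.62 and ham by 0.68, Six4 fell by 1.44 and tll by 0.99 on the log2 scale, while ase (log2 fold change 0.43, adjusted p = 0.062) and D (-0.09, adjusted p = 0.51) were not called.

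Lim3, a LIM-homeodomain transcription factor known from motor neuron identity, was at 216, 239.9 and 238 CPM at 9 hr and at 56.7, 67.5 and 61.7 CPM at 0 hr. It rose 3.67-fold (log2 1.88 ± 0.12 SE, adjusted p = 0.00257), and its lowest 9 hr library was more than 3 times its highest 0 hr library. The gene with the largest rise above 5 CPM was the non-coding RNA CR44905, at 27.6, 25.5 and 25.9 CPM at 9 hr and at 1.48, 1.59 and 1.81 CPM at 0 hr (log2 4.03 ± 0.19, adjusted p = 0.000385). They lie side by side on chromosome 2L of dm6, which was noticed after the values were seen. Lim3 occupies 2L:19079256-19108427 on the minus strand and CR44905 2L:19108785-19109883 on the plus strand, so the pair is divergent with 357 bases between their starts. CG10700 starts 227 bases beyond the other end of Lim3 and was at 8.30, 9.57 and 9.58 CPM at 9 hr, against 1.54, 1.39 and 1.81 CPM at 0 hr (log2 2.50 ± 0.23, adjusted p = 0.00634). CG17344, within the Lim3 span and overlapping CG43731, was at 1.22, 0.92 and 1.80 CPM at 9 hr and at 0.20, 0.20 and 0.14 CPM at 0 hr (log2 2.77 ± 0.38, adjusted p = 0.0181), which is a few reads per 0 hr library. The called genes of this 32.6 kb stretch numbered 4, and it ends 23.9 kb from brat, the gene mutated in all groups. The transcripts of brat were at 219.7, 242 and 248 CPM at 9 hr and 224, 256 and 281 CPM at 0 hr, with overlapping libraries and no call (adjusted p = 0.67).

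Other called genes also lay next to each other, which was likewise looked for once the values were known. Over the whole genome 15 pairs of called genes overlapped or lay within 5000 bases of each other, and all 15 pairs moved in the same direction, upward. These pairs held 25 of the 200 called genes with a known position, some of them, such as Lim3, in several pairs. How often tested genes in general lie so close to a called gene was not counted. The genes of 6 pairs overlap, so reads may have been assigned to the wrong member. A second run of neighbours was on 3R, where CG16710 (19.0, 18.7 and 19.6 CPM at 9 hr, against 5.23, 6.09 and 7.54 CPM at 0 hr), CG18754 and SPE lie in tandem from 23682503 to 23688147. SPE, the protease that cleaves the Toll ligand Spätzle, rose 5.92-fold (2.74, 2.09 and 2.62 CPM at 9 hr, against 0.32, 0.51 and 0.45 CPM at 0 hr). SPE overlaps CG18754, which rose 2.23-fold.

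Among other transcription factors, castor (cas), a zinc finger protein of the neuroblast temporal series, was at 1244, 1308 and 1344 CPM at 9 hr and at 438, 362 and 462 CPM at 0 hr. The groups of cas were far apart, and it rose 3.05-fold (log2 1.61 ± 0.21, adjusted p = 0.0172). It was the only one of 15 temporal factors tested to be called: the list had a median log2 fold change of -0.24, with 2 members above 0, beside 0.00 over all genes tested. sage, a basic helix-loop-helix factor known from the salivary gland, was at 21.7, 15.3 and 17.9 CPM at 9 hr and at 5.23, 5.01 and 5.26 CPM at 0 hr, a 3.68-fold rise. FoxP, a forkhead factor with roles in adult behaviour, was at 92.2, 96.9 and 92.7 CPM at 9 hr and at 46.5, 45.2 and 51.0 CPM at 0 hr (1.97-fold higher, adjusted p = 0.0319). Ets21C, an ETS-domain factor of stress and JNK signalling, rose 1.84-fold and the co-activator mbf1 1.56-fold. The choice of FoxP, Ets21C and mbf1 followed their values, and Ets21C overlaps nAChRbeta3 and mbf1 overlaps nxf2. Of 63 homeodomain factors tested, Lim3 was the only one called, and the median of the list was -0.18.

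**Figure D2:**
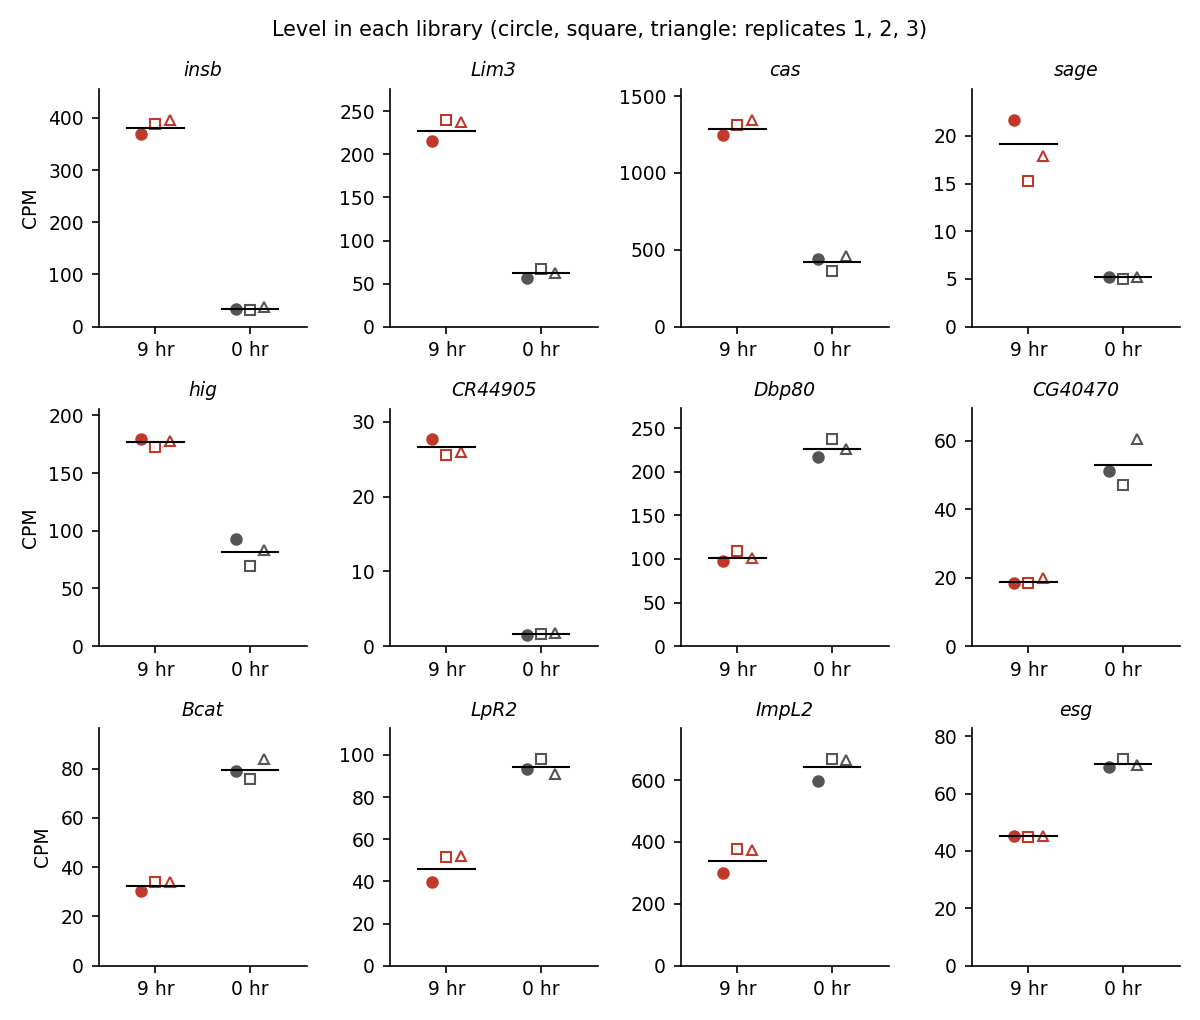
The level of 12 genes in each library (CPM, axis from 0), with 9 hr at the left and 0 hr at the right; circles, squares and triangles are replicates 1, 2 and 3, and bars are group means with 9 hr replicates 2 and 3 averaged first. The 9 hr libraries of insb, Lim3, cas, sage, hig and CR44905 all lie above their 0 hr libraries, and those of Dbp80, CG40470, Bcat, LpR2, ImpL2 and esg all lie below.

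Cell surface and synaptic genes gave isolated calls. hig, which encodes a protein of the synaptic cleft, was at 179, 173 and 178 CPM at 9 hr and at 92.9, 69.3 and 83.5 CPM at 0 hr (2.16-fold higher, adjusted p = 0.0114). CG32791, now named DIP-alpha, encodes an immunoglobulin-domain receptor of synaptic partner matching and rose 2.01-fold, with an exon overlap with CG2875 and ppk8 (50.7, 43.7 and 46.0 CPM at 9 hr, against 23.1, 21.8 and 26.4 CPM at 0 hr). The axon guidance receptor and ligand gene Sema-1a, in contrast, was at 163, 185 and 144 CPM at 9 hr and at 254, 254 and 280.0 CPM at 0 hr, a fall of 0.67 on the log2 scale. Of 48 axon guidance and adhesion genes 1 was higher and 1 lower, and of 29 synaptic and excitability genes 0 were called in edgeR, with 4 higher and 4 lower at an unadjusted p under 0.05 and 1 lower in DESeq2. RhoGAP102A, a GTPase-activating protein gene of chromosome 4, rose 4.70-fold, at 12.4 ± 0.538 CPM at 9 hr and 2.64 ± 0.112 CPM at 0 hr.

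The largest other rises were spread over genes of unlike function. Spn42Dd, a serine protease inhibitor, rose 3.90-fold (10.3, 9.14 and 8.98 CPM at 9 hr, against 3.23, 1.86 and 2.34 CPM at 0 hr), and its overlapping paralogue Spn42Dc rose 1.87-fold, a pair between which reads may have been split. CG4984, CG5618 and the antisense RNA CR45264 rose 2.88-, 2.75- and 3.25-fold, and each overlaps an exon of another gene. Irc, the immune-regulated catalase, was at 45.9, 44.0 and 45.3 CPM at 9 hr and at 18.5, 18.0 and 16.0 CPM at 0 hr, a 2.58-fold rise. Tequila, a chymotrypsin-like multidomain protease, rose 2.16-fold. Irc, Tequila, SPE and CG18754 were chosen by their values, and of 25 immune effector and recognition genes tested 0 were called in edgeR or in DESeq2, with 1 higher and 2 lower at an unadjusted p under 0.05.

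Detoxification genes gave isolated calls. Cyp6t3 and Cyp4d14 rose 2.61- and 3.35-fold and Cyp6a13 fell by 1.26 on the log2 scale, among 56 cytochrome P450 genes with a median of -0.10. Cyp4d14 overlaps CR45479 and Cyp6t3 overlaps CG8858. GstD9, a glutathione transferase, was at 56.8, 47.4 and 48.9 CPM at 9 hr and at 24.1, 25.9 and 24.4 CPM at 0 hr, the only call among 32 genes of its family. The carboxylesterase gene alpha-Est2, which overlaps an antisense RNA, rose 6.80-fold, at 4.12 ± 0.0170 CPM at 9 hr, against 0.606 ± 0.200 CPM at 0 hr. The clock gene tim rose 2.50-fold (6.18, 5.86 and 4.64 CPM at 9 hr, against 1.74, 2.44 and 2.73 CPM at 0 hr), the only call among 11 clock genes, and it overlaps non-coding RNA genes.

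Several partners of Hsp90 and the mitochondrial Hsp10 rose, while most classical heat shock genes were not called. Hsp90 (Hsp83) folds signalling proteins together with co-chaperones, and the mitochondrial chaperonin is built of Hsp60 and its lid Hsp10. Of 28 heat shock and chaperone genes tested 3 were higher and 0 lower, and the median was 0.02. CG11267, the mitochondrial Hsp10, was at 369, 333 and 338 CPM at 9 hr and at 195, 195 and 198 CPM at 0 hr (1.80-fold higher, adjusted p = 0.00471). Hop, which links Hsp70 to Hsp90, rose by 0.59 on the log2 scale and Hsp23, a small heat shock protein, by 1.10. The list had 1 higher gene without 0 hr replicate 1 or 2, 2 without 0 hr replicate 3 and 0 without 9 hr replicate 1. Hsp23 was at 2478, 2049.6 and 2075 CPM at 9 hr and at 754, 1125 and 1289 CPM at 0 hr.

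A list of 13 Hsp90 partners and chaperonins was drawn up once the values were known. Of its members 6 were higher and 0 lower, with a median log2 fold change of 0.43. Over all genes tested 1.22% were higher and 0.610% lower, but a list drawn up this way cannot test for an excess. FKBP59, a peptidyl-prolyl isomerase of the Hsp90 complex that overlaps CG34183, was at 469, 414 and 418 CPM at 9 hr and at 259, 254 and 288 CPM at 0 hr (log2 0.73 ± 0.08, adjusted p = 0.0098). CG1416, the fly counterpart of the Hsp90 ATPase activator Aha1, was at 357, 309.9 and 312 CPM at 9 hr and at 182, 189 and 219 CPM at 0 hr. CHORD, which overlaps CG5515, rose 1.70-fold and Dpit47, a co-chaperone that binds DNA polymerase alpha, 1.55-fold. In these genes the 9 hr and 0 hr libraries did not overlap, which also held for 39.5% of all genes tested. Hsp60 (log2 0.42, adjusted p = 0.031) and Cdc37, the kinase-directed co-chaperone (0.43, adjusted p = 0.061), were not called, the first for its fold. Hsp83 was at 2923, 2871 and 2912 CPM at 9 hr and at 3088, 3163 and 4514 CPM at 0 hr, with no call (-0.30 ± 0.29). Without 0 hr replicate 1 or 2, 3 members of the list were called, and without 9 hr replicate 1, 0.

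The heat-inducible genes differed within the groups. Hsp22 was at 154, 162 and 174 CPM at 9 hr and at 48.8, 59.2 and 247 CPM at 0 hr, and Hsp68 at 50.8, 125 and 136 CPM at 9 hr, against 14.9, 24.8 and 387 CPM at 0 hr. In both, 0 hr replicate 3 was the highest of the 6 libraries and the other 0 hr libraries were the lowest. Hsp26 was at 982, 936 and 945 CPM at 9 hr and at 261, 305 and 813 CPM at 0 hr (log2 1.06 ± 0.54, adjusted p = 0.29). Hsp27 was at 70.6 CPM in 9 hr replicate 1 but at 1051 and 1059 CPM in replicates 2 and 3, and at 756, 1074 and 1065 CPM at 0 hr. The transcript of the alpha-gamma element at the 87C heat shock locus (alphagamma-element:CR32865) rose 4.81-fold, at 12.7 ± 1.03 CPM at 9 hr and 2.65 ± 1.03 CPM at 0 hr.

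**Figure D3:**
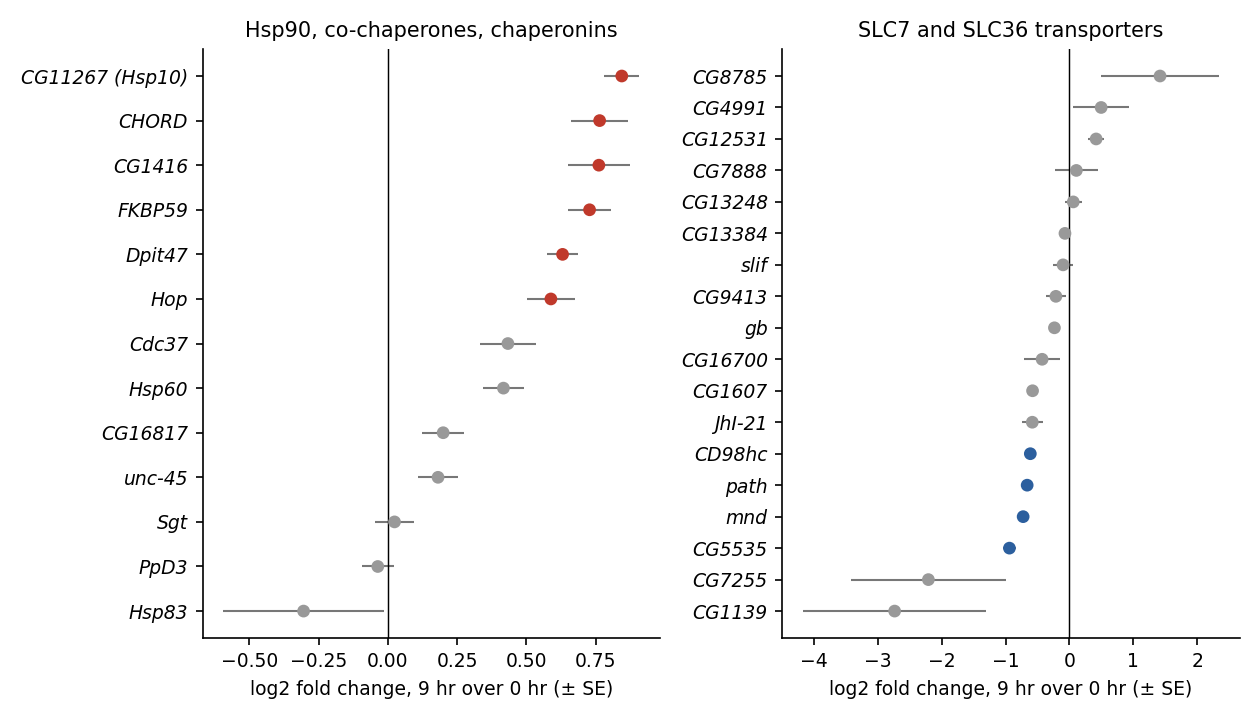
Log2 fold change at 9 hr over 0 hr (± SE) of 13 genes of Hsp90, its co-chaperones and the chaperonins (left) and of 18 genes, amino acid transporters and the heavy chain CD98hc (right); red marks genes called higher, blue genes called lower and grey genes not called. Of the chaperone genes 6 are red and 0 blue, and of the genes at the right 0 are red and 4 blue.

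Ribosomal protein genes had few calls. sta, which encodes the small-subunit protein RpSA, was at 5369, 4783 and 4819 CPM at 9 hr and at 3333, 2976 and 2453 CPM at 0 hr (1.74-fold higher, adjusted p = 0.0221), and RpL22, which overlaps a non-coding RNA gene, rose 1.64-fold. They were the only calls among 88 cytosolic ribosomal protein genes, whose median was 0.08. Non1, a GTPase needed to build the large ribosomal subunit, rose 1.69-fold, the only call among 31 ribosome biogenesis genes. Of 75 mitochondrial ribosomal protein genes 64 had a positive fold change and 0 were called in edgeR, with 31 higher and 1 lower at an unadjusted p under 0.05 and 1 lower in DESeq2. The median was 0.19 there and 0.20 in 71 respiratory chain genes, of which l(2)35Di was higher and CG40002 lower. CG5010, the fly CHCHD2 of mitochondria, was at 195, 169 and 175 CPM at 9 hr and at 97.7, 84.0 and 76.1 CPM at 0 hr, a 2.13-fold rise chosen by its value.

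These shifts moved with gene length. Over genes with up to 1000 exon bases the median log2 ratio of 9 hr replicate 1 to the 0 hr libraries was 0.13, and over genes above 8000 exon bases it was -0.28. In the averaged 9 hr replicates 2 and 3 the same medians were 0.07 and -0.07. The mitochondrial ribosomal protein genes had a median of 790 exon bases and the axon guidance genes, with a median log2 fold change of -0.25 and 44 of 48 members below 0, of 6831. With the length trend taken out of each library, an alternative chosen after seeing the data, the medians of the mitochondrial ribosomal protein and axon guidance lists were 0.11 and -0.13, and those of the chaperone and transporter lists 0.41 and -0.33. In that fit 124 of the 134 higher and 55 of the 67 lower genes were also called. Called genes that it lost, by the test or by the fold, were Rbp9, bt, ed, Fili, Sema-1a, chn, kst, Cam, Fur1, Sulf1, Hop, Dpit47, Iap2 and E(spl)mgamma-HLH, among others.

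**Figure D4:**
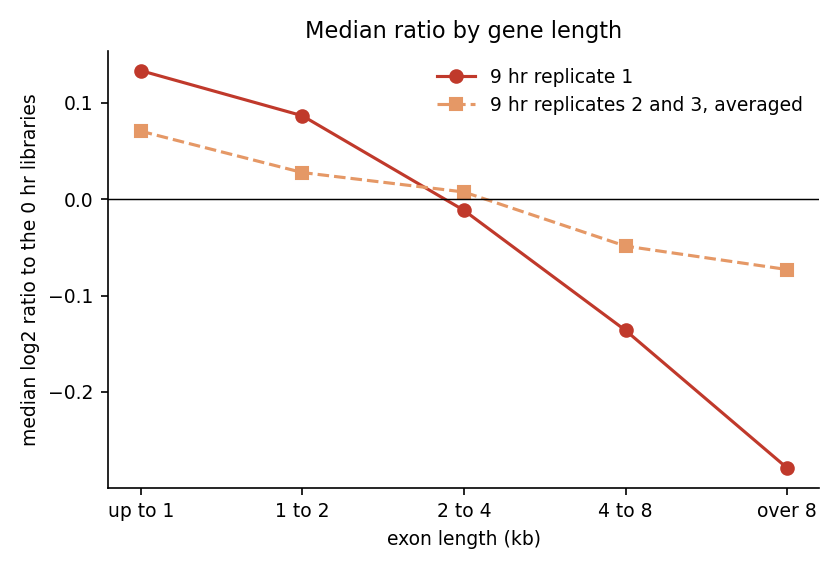
Median log2 ratio to the 0 hr libraries, of CPM + 0.5, by exon length class (kb), for 9 hr replicate 1 (circles) and for 9 hr replicates 2 and 3 averaged (squares). Replicate 1 runs from 0.13 in the shortest genes to -0.28 in the longest, the averaged pair from 0.07 to -0.07.

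Several genes of amino acid transport were called lower. SLC7 transporters such as mnd, JhI-21 and CG1607 work as pairs with the heavy chain CD98hc and carry large neutral amino acids, whereas path is an SLC36 transporter that drives growth. mnd was at 221, 224 and 222 CPM at 9 hr and at 353, 361 and 388 CPM at 0 hr (log2 -0.73 ± 0.09, adjusted p = 0.014). path was at 884, 889 and 894 CPM at 9 hr and at 1387, 1348 and 1481 CPM at 0 hr (log2 -0.66 ± 0.07, adjusted p = 0.00862). CD98hc fell by 0.61 on the log2 scale (704, 702 and 722 CPM at 9 hr, against 1059, 1054 and 1133 CPM at 0 hr). In each of these genes the 9 hr libraries lay below every 0 hr library. Of all genes tested, 39.5% had no overlap in 1 direction or the other.

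CG5535, a cationic amino acid transporter of the SLC7 family, was at 64.0, 63.5 and 66.0 CPM at 9 hr and at 133, 111 and 126 CPM at 0 hr (log2 -0.94 ± 0.10, adjusted p = 0.00867). CG1607 (log2 -0.58, adjusted p = 0.021) stayed just under the fold of 1.5 and JhI-21 (-0.58, adjusted p = 0.094), which overlaps PLCXD, missed the threshold. The libraries of neither gene overlapped between groups, as in 39.5% of all genes tested. CG1607 was at 463, 458 and 463 CPM at 9 hr, against 717, 622 and 729 CPM at 0 hr. The full list of 18 tested genes, SLC7 and SLC36 transporters with the heavy chain CD98hc, was drawn up once the values were known. It held 4 genes called lower (CD98hc, mnd, path and CG5535), against 0.610% of all genes tested, and 0 called higher, against 1.22%. Of its members 5 had a fold change above 0, and the median was -0.33. It held 3 or 4 lower genes when any library but 9 hr replicate 1 was left out, and 0 without that library. slif, a cationic amino acid transporter, was among those not called (-0.10, adjusted p = 0.75).

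Other metabolic and endocrine genes fell beside them. CG1673 (Bcat), the branched-chain amino acid aminotransferase, was at 30.4, 34.1 and 34.0 CPM at 9 hr and at 78.9, 75.6 and 83.9 CPM at 0 hr (log2 -1.30 ± 0.22, adjusted p = 0.0277). ImpL2, a secreted binder of insulin-like peptides that overlaps CG46460, was at 299.6, 377 and 375 CPM at 9 hr and at 597, 668 and 666 CPM at 0 hr, a fall of 0.93. It was the only call among 21 ecdysone response genes, whose median was -0.47, and the only one among 25 insulin, TOR and Hippo genes. In the latter list DESeq2 called 3 genes lower, and the fit with all 9 libraries kept separate called 2. LpR2, a lipophorin receptor, was at 39.7, 51.3 and 51.9 CPM at 9 hr and at 93.5, 98.0 and 90.7 CPM at 0 hr (log2 -1.04 ± 0.13, adjusted p = 0.014). Its paralogue LpR1 had a similar log2 fold change of -1.06 ± 0.37 but was not called (adjusted p = 0.14). CG3829, a gene of the CD36 scavenger receptor family that overlaps its relative emp, fell by 1.52. Jabba, a lipid droplet protein gene that overlaps Cyp12b2, was at 2.48, 2.39 and 2.81 CPM at 9 hr and at 5.64, 7.04 and 7.07 CPM at 0 hr. A list of 24 lipid transport and storage genes, without CG3829 and Jabba, had 0 higher and 1 lower in edgeR. It had 3 lower in DESeq2 and 4 lower with all 9 libraries kept separate. Of its members 8 had a fold change above 0, and the median was -0.31.

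Several lower genes sat in the heterochromatin-near end of 3L, a pattern noticed after the values were seen. CG40470 (3L:23839860-23986410) was at 18.3, 18.4 and 19.9 CPM at 9 hr and at 51.1, 46.9 and 60.3 CPM at 0 hr (2.82-fold lower, adjusted p = 0.00634). Dbp80 (3L:27279316-27422159), a DEAD-box helicase of mRNA export, was at 97.7, 109 and 101 CPM at 9 hr and at 217, 237 and 226 CPM at 0 hr (log2 -1.15 ± 0.08, adjusted p = 0.00369). CG40472 fell by 0.77 and CG40002, a complex I subunit gene, by 0.67. They were the 4 genes called lower of 39 tested within 5 Mb of the centromere end of 3L, where 0 were higher and the median was -0.12. In the rest of 3L 12 of 2131 genes were lower and the median was 0.01. CG15831 (Myo81F), a myosin gene that spans 3R:567076-2532932, fell by 1.06 at about 1 CPM at 9 hr.

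Among neural genes that fell, Rbp9, an ELAV-family RNA-binding protein, was at 3.23, 4.42 and 4.49 CPM at 9 hr and averaged 12.7 CPM at 0 hr, where its lowest library was at 11.9 CPM (log2 -1.73 ± 0.35), but it overlaps the thymidylate synthase gene Ts and its relatives elav (-0.17) and fne (-0.15) were not called. sqz, a zinc finger factor of neuronal identity, was at 45.1, 48.5 and 48.0 CPM at 9 hr and at 78.0, 70.6 and 75.2 CPM at 0 hr (log2 -0.68 ± 0.09). chn, a zinc finger repressor, fell by 0.60 at 67.5, 75.1 and 76.7 CPM at 9 hr, against 99.3, 117 and 109 CPM at 0 hr. Of 16 neuronal differentiation factors 0 were higher and 2 lower, and 15 had a fold change below 0 with a median of -0.30. The 2 became 0 without 0 hr replicate 1, 2 or 3. With the length trend removed 1 was lower and the median was -0.25.

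The Polycomb repressor Psc was at 65.0, 75.8 and 74.4 CPM at 9 hr and at 114, 108 and 129 CPM at 0 hr (log2 -0.74 ± 0.13), the only call among 38 chromatin genes. grim, an activator of cell death, fell by 0.89 (17.0, 17.0 and 16.1 CPM at 9 hr, against 28.6, 34.7 and 30.1 CPM at 0 hr), and the death inhibitor Iap2 rose by 0.59, while rpr (-0.14) and the caspase gene Ice (-0.10) were not called. Membrane and signalling genes that fell included the adhesion protein ed (log2 -0.64), RapGAP1 (-0.84), the receptor kinase Gprk1 (-0.87), the heparan sulphatase Sulf1 (-0.68), mts, the catalytic subunit of PP2A (-0.69), and alphaTub84D (-0.63). Iap2, Damm and these membrane and signalling genes were chosen by their values. Of the genes above, grim, Iap2, Damm, ed and Sulf1 overlap exons of other genes. The other falls of the 12 largest, CG42566, CG7054, CG6357, CG12496, the non-coding RNA CR31386 and the muscle titin-like gene bt, lay between -1.37 and -1.04.

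The Notch pathway and its targets gave few calls. N was at 310.4, 356 and 357 CPM at 9 hr and at 493, 453 and 475 CPM at 0 hr (log2 -0.51 ± 0.09, adjusted p = 0.029), under the fold needed for a call. Of 21 pathway genes, insb itself was the only call. The target repressor E(spl)mgamma-HLH rose 1.57-fold (78.4, 78.0 and 81.9 CPM at 9 hr, against 49.0, 47.8 and 54.6 CPM at 0 hr), and E(spl)m5-HLH fell by 1.08 (2.42, 2.88 and 3.07 CPM at 9 hr, against 5.81, 5.48 and 5.76 CPM at 0 hr). The other targets gave no call, among them E(spl)m8-HLH (0.55), klu (-0.50) and dpn (0.04).

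Of 13 neuroblast self-renewal factors esg alone was called. The Snail-family repressor esg was at 45.2, 44.9 and 45.1 CPM at 9 hr and averaged 70.3 CPM at 0 hr, with 69.1 CPM in the lowest library (log2 -0.64 ± 0.10). Its relative sna lay at 82.4, 83.2 and 79.9 CPM at 9 hr and at 125.5, 126 and 124.5 CPM at 0 hr. The log2 fold change of sna was similar (-0.61), but its standard error was larger (0.29) and it was not called (adjusted p = 0.26). These sna libraries lay close together within each group and did not overlap between groups. The spread used in the test was also estimated from libraries outside this comparison, and their part in this standard error was not tested. Of the 13 factors 11 had a fold change below 0, the median being -0.45 and, with the length trend removed, -0.23. grh (-0.52), Myc (listed as dm, -0.51) and Imp (-0.45) were among those not called, as were the type II markers pnt (-0.28), btd (-0.02) and Sp1 (0.25). Asymmetric division genes (19), cyclins and mitotic genes (41) and DNA replication genes (39) had 0 calls in edgeR and 0 in DESeq2, with medians of -0.14, -0.03 and 0.01, and 3, 8 and 6 members at an unadjusted p under 0.05.

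Of 597 non-coding RNA genes with CR names 11 were higher and 1 lower, and the median was 0.29. Over all genes tested 1.22% were higher and 0.610% lower. The 11 higher CR-named genes became 3, 2 and 6 without 0 hr replicate 1, 2 or 3. Non-coding RNAs at 1 CPM or more were higher in 3.46% (9 of 260), against 1.29% of protein-coding genes at that level, a difference that was not tested. By level, the median was 0.17 in genes under 1 CPM and -0.09 in genes at 200 CPM or more. Of 56 chemoreceptor and odorant-binding genes, with a median of 0.42, 2 were higher, Ir25a (3.64, 3.91 and 3.37 CPM at 9 hr, against 1.48, 1.62 and 1.73 CPM at 0 hr) and Ir76a, which overlaps CG14102. The part of low counts in these medians was not tested.

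Markers of other cell types varied between libraries. Of 6 lists of other cell types only the muscle list held a call in edgeR, bt. DESeq2 called 2 muscle genes and 1 glial gene lower. Of 21 glial genes 19 had a fold change below 0, with a median of -0.21. The summed level of 11 fat body and haemolymph genes was 241, 546 and 543 CPM at 9 hr and 455, 314 and 353 CPM at 0 hr, and Lsp1alpha reached 44.9 and 46.8 CPM in 9 hr replicates 2 and 3 but 1.22 CPM in replicate 1, against 22.98, 0.71 and 2.14 CPM at 0 hr. Muscle genes summed to 686, 894 and 822 CPM at 9 hr and to 1172, 1096 and 954 CPM at 0 hr, glial genes to 1734, 1644 and 1660 CPM at 9 hr and to 2074, 1891 and 1970 CPM at 0 hr. Ring gland genes summed to 274, 212 and 207 CPM at 9 hr and to 325, 409.8 and 155 CPM at 0 hr, and haemocyte genes to 308, 241 and 246 CPM at 9 hr, against 461, 350.1 and 161 CPM at 0 hr, lowest in replicate 3. The glial transcription factor repo was at 62.4, 51.8 and 56.9 CPM at 9 hr and at 58.5, 56.1 and 65.3 CPM at 0 hr, whereas wrapper of cortex and midline glia was under the fold (log2 -0.56, adjusted p = 0.021). The part of tissue composition in the falls of bt, LpR2 and ImpL2 was not tested.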

How the data were processed

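Poly-A RNA from pooled brains was sequenced as paired-end reads. HISAT2 (2.1.0) alignment to dm6 and StringTie (1.3.4) quantification were done by the authors. Annotation and use of strand are not given in the sources used here, so genes with overlapping exons are uncertain. Raw counts per gene were deposited. Of 14560 gene names, 11086 matched current symbols and 3391 older ones in the annotation of dm6.

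Genes passing filterByExpr (10985) were scaled by TMM and fitted over all 3 times with the quasi-likelihood functions of edgeR (4.0.16, R 4.3.3), 9 hr replicates 2 and 3 summed. CPM values are TMM-scaled, and fold changes are 9 hr over 0 hr. Calls required 1.5-fold and 0.05 after Benjamini-Hochberg adjustment. Alternatives were DESeq2 (1.42.0), all libraries separate, a replicate block, other scalings and filters, and leaving out each library. The exon-length correction, and list counts without 0 hr replicate 3, were added after seeing the data.

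Named genes were insb, the 12 largest rises and the 12 largest falls that were also called with all libraries separate, at 5 CPM or more and without overlap between groups, called members of the lists (up to 4 each way), and markers. Other genes, among them uncalled list members given beside called ones, were picked by their values. The members and the 57 gene lists were chosen with earlier results of these data known, some entries were dropped once the table was at hand, and 2 lists were added after values were seen. No sequences are printed.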

Additional observations from a re-analysis of the deposited data

Results flagged for a closer look

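The 18 hr libraries enter no comparison above, and 3 genes are given here for their level in them beside the 0 hr libraries. CG6520 (insb) averaged 337 CPM at 18 hr, against 34.1 ± 2.44 CPM at 0 hr (SD, n = 3). CR44905 averaged 20.9 CPM at 18 hr, against 1.63 ± 0.17 CPM at 0 hr, and Lim3 averaged 230 CPM at 18 hr, against 62.0 ± 5.38 CPM at 0 hr. Groups of 3 libraries are too small for a test of single outlying libraries.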

How the results depend on the processing

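In none of the 103 called genes named here did the direction reverse under any alternative. The counts of genes called (134 higher, 67 lower) moved most with the samples and the test: 269 and 129 with all 9 libraries kept separate, 238 and 173 with the DESeq2 Wald test, 266 and 156 at an adjusted p under 0.05 with no fold threshold, and 9 and 2 in a test against a 1.5-fold change. Leaving out 1 library gave 3 to 142 higher and 0 to 73 lower genes, the fewest without 9 hr replicate 1, which leaves a lone 9 hr sample assumed to vary like the other groups. Counts stayed within 1.5 times under RLE and upper-quartile scaling, both other filters, the 0 and 9 hr libraries alone, and the length trend removed. Of the 103 genes, 95 kept their call with all libraries separate, 101 in DESeq2, 83 with the 0 and 9 hr libraries alone, 89 with the length trend removed (chosen after seeing the data) and 3 without 9 hr replicate 1. Without 0 hr replicate 1, 2 or 3, only 39, 24 and 47 of the 103 genes kept their call. In the test against a 1.5-fold change 10 of them did. Replicate numbers did not pair the samples: the deviations of same-numbered 0 and 9 hr libraries correlated at -0.12, 0.03 and -0.16. With a replicate block and all 9 libraries kept separate 200 genes were higher and 95 lower. Scaling moved the median over all genes by less than 0.1 on the log2 scale (0.00 by TMM and RLE, 0.03 by upper quartile). With n = 2 at 9 hr, changes near 1.5-fold are at the limit of what can be called.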

Other observations

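Although 9 hr replicates 2 and 3 were nearly identical, some genes differed between them. Of 8223 genes with at least 200 reads in these libraries together, 84 differed more than 2-fold in their share of reads, and 58 of these overlap an exon of another gene. Called genes among them included wus, at 7.81 and 25.4 CPM in replicates 2 and 3, and CG31648 (Cox11), at 19.8 and 9.81 CPM. Both were called with the libraries summed but not with all 9 kept separate.

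The dosage compensation RNA roX2, which in wild-type flies is made in males, was at 28.0, 33.5 and 31.3 CPM at 9 hr and at 9.88, 14.7 and 18.8 CPM at 0 hr (log2 1.07 ± 0.28, adjusted p = 0.081), whereas roX1 was at 119.7, 141 and 176 CPM at 9 hr and at 167, 139 and 149.8 CPM at 0 hr. Sxl, the female-determining RNA-binding protein, was at 243, 244 and 246 CPM at 9 hr and at 354, 355 and 385 CPM at 0 hr, just under the fold of 1.5 (log2 -0.58, adjusted p = 0.016).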
